A study of Mus musculus with 38 samples.

Results

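The 8 liver tumours of LAP-tTA;tet-YAP mice were compared with each other, gene by gene, among the 38 liver RNA-seq libraries of the series. They were taken by the name of their columns in the table of the LAP system, which holds 21 libraries. The other libraries come from mice carrying tet-Myc, tet-YAP, both or neither, in the LAP and R26 systems, and are not compared here. Each tumour arose in a mouse in which the LAP promoter, active in hepatocytes, drives the tetracycline transactivator and so an activated mutant of YAP; the labels give no age, sex or time of induction. The tissue is labelled liver and the genotype LAP-tTA;tet-YAP in all 8. The columns are named Tumor without a number, so tumours 1 to 8 are numbered here in the order of the columns, and a number need not be that of the sample title. The labels do not say whether any of the 8 shared a mouse, so the tests below measure only the spread between these libraries.

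YAP is the coactivator that the Hippo kinase cascade keeps out of the nucleus. In the nucleus it binds the TEAD factors and turns on genes of growth, of the matrix and of the biliary and progenitor programme of the liver. Myc drives ribosome and nucleotide production and cell division. Hepatocytes, the cells that carry the transgene, otherwise make plasma proteins, urea, glucose and bile acids, and lose many of these functions in tumours. A tumour also holds cells that do not carry an active transgene, among them Kupffer cells (the resident macrophages), recruited monocytes, sinusoidal endothelium and stellate cells. In bulk RNA, fewer cells of a type and less RNA per cell cannot be told apart.

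Levels are RPKM, reads divided by the length of the gene and the size of the library, as deposited. The spread of a gene is its standard deviation (SD) over the 8 tumours on the scale log2(RPKM + 0.5), which understates the spread of low genes. Of the 21644 genes with a readable symbol, 11536 had a mean of at least 1 RPKM and were kept. The reads recovered from the RPKM steps gave 41160000 to 56810000 reads for a library, of which 16.7% (tumour 8) to 22.6% (tumour 6) lay in the genes kept. The most abundant genes were compressed: the sixth-highest gene stood at only 28.7 to 38.6 RPKM, highest in tumour 4, so the spread of genes such as Afp, Igf2 and H19 is not that of the tumours alone. The median gene was low in tumour 8 and high in tumour 6, with log2 median-ratio factors of -0.32 and 0.23 and between -0.06 and 0.12 in the other 6. Single levels and summed levels below are as deposited, and rescaling by these factors is given for some results only. A low end in tumour 8 or a high end in tumour 6 can therefore change with it. Xist, the RNA of the inactive X chromosome, stood at 11.8 to 18.1 RPKM in every tumour and the Y-linked genes searched for had a mean under 1 RPKM, the pattern of female tissue. Yap1 itself had an SD of 0.12, from 3.44 RPKM in tumour 8 to 4.49 RPKM in tumour 6. These ends are the libraries of the lowest and the highest median-ratio factor, and rescaling by the factors reverses the order of tumours 8 and 6. Whether transgene reads were counted under Yap1 is not given in the sources used here.

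The tumours differed from each other far beyond the error of counting reads. The median gene had an SD of 0.29 across the tumours, against 0.05 from counting alone, and 96.3% of the 11536 genes had an SD above 2 times their counting SD. Most genes nevertheless moved little: 62.4% had a range under 1 on the log2 scale, so less than 2-fold between the highest and the lowest tumour. A range of at least 2, which is 4-fold on the scale used, was reached by 1051 genes, or 9.11% of those kept. This share is the background against which the gene lists below are read. A range of at least 3 was reached by 253 genes and of at least 4 by 40. Wide ranges were more frequent among low genes, with 14.9% of genes at 1 to 2 RPKM and 0.847% of genes above 15.7 RPKM, where the compression acts.

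**Figure D1:**
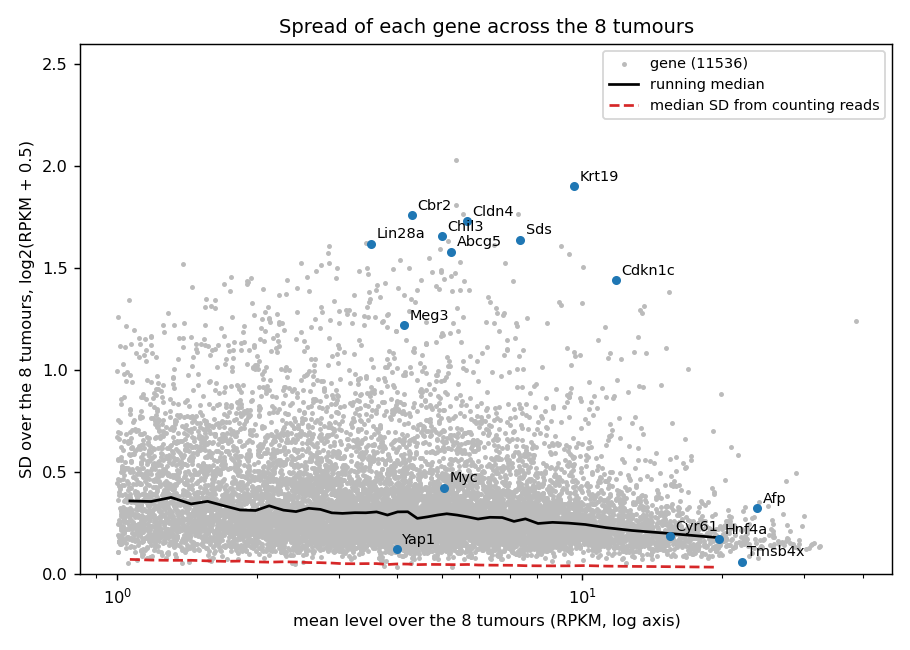
Spread of the 11536 genes kept: the x axis is the mean level over the 8 tumours in RPKM on a log axis, the y axis the SD over the tumours on log2(RPKM + 0.5), each grey point a gene. The black line is the running median SD and the dashed red line the median SD that counting reads alone gives; Krt19 and Cldn4 lie far above the black line, Yap1 and Tmsb4x below it.

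The named genes with the largest SD were mostly liver function genes on one side and biliary or fetal genes on the other. Krt19, a keratin of bile duct and progenitor cells, stood in tumours 1 to 8 at 0.436, 15.9, 5.51, 14.3, 18.2, 19.8, 2.25 and 0.422 RPKM (SD 1.90). It was thus near 0 in tumours 1 and 8 and above 14 RPKM in tumours 2, 4, 5 and 6. Cldn4, a tight junction protein of ductal epithelium, stood at 0.544, 3.59, 2.08, 7.63, 17.9, 12.3, 0.780 and 0.256 RPKM, highest in tumours 5 and 6. Lin28a, which blocks the maturation of let-7 microRNAs and is a fetal and stem cell gene, stood at 0.244, 6.74, 0.149, 2.28, 9.21, 7.09, 2.13 and 0.288 RPKM. Tumours 1, 3 and 8 were all under 0.3 RPKM for Lin28a, and the others all above 2 RPKM. Cbr2, a carbonyl reductase, reached 14.6 and 12 RPKM in tumours 5 and 6 and at most 3.49 RPKM in the rest. Slc39a5, a zinc transporter, ran from 0.441 RPKM in tumour 8 to 17.9 RPKM in tumour 4.

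Liver enzymes and transporters ran the other way. Sds, which deaminates serine for glucose production, stood at 13.7, 3.41, 13.5, 2.73, 0.633, 0.469, 12.4 and 12 RPKM. Abcg5, a subunit of the sterol exporter of hepatocytes, stood at 11.1, 3.18, 6.98, 6.44, 0.143, 0.334, 5.40 and 8.29 RPKM. In both genes tumours 5 and 6 were the lowest. Lrtm2, a leucine-rich repeat membrane protein, had the same low pair, with 0.0832 RPKM in tumour 5 and 10.3 RPKM in tumour 1. Chil3, a chitinase-like protein of myeloid cells, ran from 0.0915 RPKM in tumour 6 to 9.05 RPKM in tumour 7 and is described with the neutrophil genes below. At the other extreme, the 5 most even genes with a mean of at least 10 RPKM were Tmsb4x, Ogt, Prdx6, Son and Ctsb, with SDs of 0.06 to 0.08. Tmsb4x, which binds actin monomers, stayed between 19.9 and 23.0 RPKM, a level at which the compression also narrows the range.

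Over all genes kept, 48.9% of the variance lay on the first principal component, 16.1% on the second and 12.7% on the third. Tumours 5 and 6 stood at one end of the first component, with scores of 0.40 and 0.42, and tumours 8, 3 and 1 at the other, with -0.37, -0.26 and -0.25. Tumours 4, 2 and 7 lay between, at 0.05, 0.10 and -0.08. The relation of the first component to the number of library reads did not pass the test (Pearson r = 0.36, exact permutation p = 0.402, Spearman rho = 0.69), although r was 0.98 without the 2 tumours farthest from the median depth. The second component fell with library reads (r = -0.88, rho = -0.43, exact permutation p = 0.0150, adjusted over the 3 components 0.0450), a relation that rested on 2 tumours, r being 0.29 without them. The first component rose with the median-ratio factor of the libraries (r = 0.77, rho = 0.83, exact permutation p = 0.0126, adjusted over the 3 components 0.0378). Without the 2 tumours farthest from the median r was 0.57. This test was not planned, and factor and component come from the same RPKM values, so its p is not one of separate measures. The percentage of reads in genes, also not planned, had r = 0.74 (exact permutation p = 0.0223, adjusted over the 3 components 0.0670). After rescaling by the median-ratio factors the scores of the first component had r = 0.99 with the scores before it. Across genes, the most alike pair was tumours 1 and 7 (r = 0.950) and the least alike tumours 3 and 6 (r = 0.712); tumours 5 and 6 had r = 0.911. The variance between any pair was 17.6 to 107 times what counting gives, so no library was a copy of another.

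Clustering of the 500 genes of largest SD, all at 0.87 or more, put 460 of them in 5 modules of genes that varied together. The choice of genes by spread and of modules by correlation leaves nothing to test, so the modules are a description. Module 1 held 210 genes, mostly of hepatocyte metabolism, and module 2 held 130 genes that ran against it, with r = -0.92 between the module means. The mean of module 1 lay 1.04 above the gene means in tumour 3 and 0.93 and 0.75 above in tumours 1 and 8, and -1.48 and -1.54 in tumours 5 and 6, all on the log2 scale. Module 2 lay at 1.22 and 1.05 in tumours 5 and 6 and at -1.28, -0.96 and -0.95 in tumours 8, 1 and 3. With median-ratio scaling tumour 8 became the highest in module 1, at 1.04, and the ends of module 2 did not change.

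**Figure D2:**
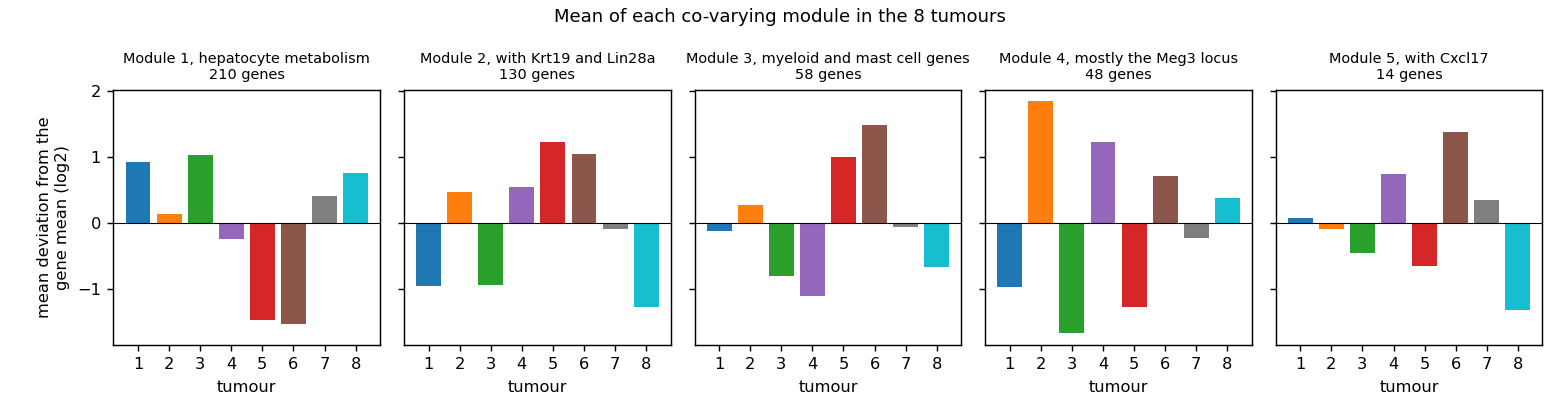
Mean deviation of each module from the gene means (y axis, log2) in tumours 1 to 8 (x axis), for the 5 modules of 210, 130, 58, 48 and 14 genes. Modules 1 and 2 mirror each other, with tumours 5 and 6 at -1.48 and -1.54 in module 1 and 1.22 and 1.05 in module 2; module 4 has its own order, highest in tumour 2 and lowest in tumour 3.

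The genes nearest to the mean of module 1 were those of plasma proteins, amino acid and lipid metabolism. Acsm5, an acyl-CoA synthetase for medium-chain fatty acids, stood in tumours 1 to 8 at 6.18, 2.19, 6.30, 1.76, 0.332, 0.326, 3.75 and 4.70 RPKM. Hrg, a plasma glycoprotein made by hepatocytes, stood at 25.4, 15, 25.3, 9.86, 2.18, 2.21, 20.4 and 22.1 RPKM, and Tat, the tyrosine aminotransferase, at 21.7, 13.9, 23.5, 13.2, 4.91, 3.94, 16.2 and 20.4 RPKM. Tumours 5 and 6 again formed the low pair, with tumours 4 and 2 next. Sec14l2, a lipid-binding protein, had the same 4 lowest tumours, and Fmo5, a flavin monooxygenase, had tumours 6, 5 and 4 as its lowest. Module 1 also held 8 of the 13 neutrophil genes kept, 3 macrophage markers of Kupffer cells and 2 markers of sinusoidal endothelium, so its name covers only its largest group.

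The genes nearest to the mean of module 2 were Mboat2, a phospholipid acyltransferase, Fscn1, the actin-bundling protein fascin, Lamb1, a laminin chain, Dusp9, a phosphatase of MAP kinases, and Cubn, an endocytic receptor. Fscn1 stood at 1.48, 8.30, 1.59, 5.93, 12.1, 10.9, 3.07 and 0.818 RPKM. Dusp9 stood at 3.24, 8.14, 1.61, 7.85, 16.9, 12.5, 6.22 and 1.06 RPKM. Both were highest in tumours 5 and 6 and lowest in tumours 8, 1 and 3. Module 2 also held genes chosen for mention after their values were seen: Sall4 and Trim71, a transcription factor and an RNA-binding protein of stem cells, and Plagl1, an imprinted zinc finger gene. Plagl1 stood at 0.558, 3.02, 0.501, 7.89, 11, 5.72, 3.57 and 0.183 RPKM, and Trim71 at 0.487, 2.5, 0.0838, 1.04, 6.59, 4.48, 1.18 and 0.275 RPKM. These genes were lowest in tumours 1, 3 and 8, the tumours with the highest mean of module 1.

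The promoters of module 1 are shown because its members moved together and many are known targets of the liver factors HNF1 and HNF4. Promoters are the 250 bases before to 50 bases after the start, from RefSeq on GRCm38.p6, and letters were searched on both strands. The HNF1-type word GTTAAT occurred in 17.7% of 192 module 1 promoters, 6.31% of 111 module 2 promoters, 4.80% of the promoters of genes kept and 7.10% of all 32851 promoters. The HNF4-type word CAAAGTCC occurred in 6.25%, 4.50%, 1.52% and 1.42% of the same sets. The TEAD word GGAATG occurred in 16.7%, 11.7%, 12.4% and 14.7%, and the E-box CACGTG, the word of Myc, in 6.77%, 5.41%, 9.99% and 7.15%. The median GC content was 50%, 59.3%, 60.7% and 52.7% in these sets, and words rich in A and T are more frequent where GC is low. A match is a string of letters and not a site shown to be used. Below are the 250 bases before the start of Pck1 (chr2:173152823-173153072, plus strand), which holds the HNF1-type word 192 bases before the start, and of Fmo2 (chr1:162898494-162898743, minus strand), which holds the HNF4-type word 35 bases before it; capitals mark the word, in both as its reverse complement.
Pck1: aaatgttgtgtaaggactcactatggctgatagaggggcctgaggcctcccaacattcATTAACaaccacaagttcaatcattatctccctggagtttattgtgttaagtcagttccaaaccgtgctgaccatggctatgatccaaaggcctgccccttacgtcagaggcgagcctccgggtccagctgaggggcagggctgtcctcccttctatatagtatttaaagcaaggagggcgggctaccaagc
Fmo2: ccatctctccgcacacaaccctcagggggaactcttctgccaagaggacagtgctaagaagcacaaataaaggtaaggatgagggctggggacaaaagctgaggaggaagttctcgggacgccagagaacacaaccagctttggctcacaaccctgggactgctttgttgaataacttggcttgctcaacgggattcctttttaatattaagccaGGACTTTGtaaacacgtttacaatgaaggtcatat

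Pck1, which catalyses the committed step of glucose production, stood at 25.2, 13.2, 22.4, 5.61, 3.67, 1.71, 13.6 and 23.0 RPKM. Fmo2, another flavin monooxygenase, stood at 11.1, 11, 16.6, 9.95, 0.518, 3.19, 10.4 and 9.16 RPKM. Pck1 fell by steps over tumours 4, 5 and 6, while Fmo2 was even in 6 tumours and low in tumours 5 and 6.

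The lists of liver function gave the axis by name, read against the 9.11% of all genes that ranged at least 4-fold. Of 18 cytochrome P450 and bile acid genes kept, 13 did (72.2%), with a list mean from 0.82 in tumour 3 to -1.05 in tumour 5 on the log2 scale. Slco1a4, a bile acid and drug uptake carrier, stood at 5.33, 3.81, 12.1, 1.88, 0.254, 0.143, 2.03 and 5.81 RPKM, and Cyp2c38, Cyp2d9 and Cyp4a12a, all P450 enzymes, were the next widest. Cyp4a12a did not follow the axis: it was at 5.78 RPKM in tumour 6 and 0.185 RPKM in tumour 5. Of the female-biased liver genes 7 of 8 ranged widely, among them Fmo2, Slc22a26 and Cyp2b9, and of the male-biased genes 4 of 6, among them Mup20, at 0.667 RPKM in tumour 4 and 12.3 RPKM in tumour 1. Liver zonation genes did so on both sides of the lobule: 7 of 12 pericentral genes (58.3%) and 7 of 16 periportal genes (43.8%).

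Both zones had their lowest mean in tumour 6, and they differed in tumour 4. Cyp1a2, the pericentral P450 chosen as a reference gene, stood at 4.60, 2.88, 1.87, 0.128, 0.949, 0.270, 1.37 and 4.50 RPKM, so tumour 4 was its lowest. The mean of the pericentral list was -0.64 in tumour 4, -0.58 in tumour 5 and -1.03 in tumour 6. That of the periportal list was 0.18 in tumour 4, -0.62 in tumour 5 and -1.0 in tumour 6. Cps1, the urea cycle enzyme of periportal hepatocytes, stood at 17.5 RPKM in tumour 4, among 13.8 to 21.7 RPKM in tumours 1, 2, 3, 7 and 8, and at 2.56 and 1.78 RPKM in tumours 5 and 6. Hal, which breaks down histidine, ran from 0.0894 to 6.53 RPKM. Cyp2c37 and Cyp2c29, pericentral P450 enzymes, had their lowest levels in tumour 6, at 0.183 and 0.391 RPKM. The periportal count fell to 4 without tumour 6 and to 3 without tumours 5 and 6.

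Of 15 hepatocyte transcription factors 4 ranged 4-fold (26.7%). Hnf4a stayed between 16 and 22.8 RPKM (SD 0.17), a level in the compressed range. The 4 wide ones were nuclear receptors. Nr1i3, the receptor CAR, stood at 4.87, 2.38, 2.94, 0.477, 0.550, 0.260, 2.02 and 4.14 RPKM. Nr1h4, the bile acid receptor FXR, stood at 7.48, 3.5, 8.28, 5.67, 1.01, 1.58, 5.78 and 7.06 RPKM. Nr1i2, the receptor PXR, was at 1.26 and 3.55 RPKM in tumours 5 and 6 and at 7.83 to 10.5 RPKM in the others, and Nr0b2, the corepressor SHP, ran from 0.205 to 2.45 RPKM. The low tumours of Nr1i3 included tumour 4, as for Cyp1a2, and those of Nr1h4 and Nr1i2 did not. Without tumours 5 and 6 only 1 of the 15 ranged widely.

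Krt19 was also the reference gene with the most relatives. Each of 12 reference genes, chosen 1 for each process or cell type, was tested against every other gene kept with an exact permutation test of Pearson r over all pairings of the tumours, with Benjamini-Hochberg adjustment over the genes. Krt19 had 1866 genes at adjusted p under 0.05, 1817 with positive r (15.8% of genes tested) and 49 with negative r (0.425%). The highest r were those of Twistnb, a subunit of RNA polymerase I (r = 0.997, adjusted p = 0.0166 by the exact permutation test), Ubtd2 (r = 0.990) and Gipc2 (r = 0.990). Twistnb was between 3.74 and 4.44 RPKM in tumours 1, 7 and 8 and between 5.47 and 6.85 RPKM in the others. The lowest r were those of Scaf4 (r = -0.967, adjusted p = 0.0251 by the same test), Herpud2 and Saa4. Of 24 genes of ribosome biogenesis 13 were among the called, all positive, and 7 of 19 genes of cholesterol synthesis.

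These calls did not hold under every setting. The median r with Krt19 over all genes was 0.54, and after median-ratio or quantile scaling no gene was called. None was called without tumour 8 or without tumours 5 and 6, and the other single omissions gave 288 to 1748. With tumours left out the exact test has fewer pairings, so its smallest p is larger and calls are harder to reach. Without tumours 5 and 6 no reference gene had any call. Most genes were low in tumour 8, as was Krt19. Ribosome biogenesis had no member with a 4-fold range (against 9.11% of all genes), and its mean lay between -0.51 in tumour 8 and 0.33 in tumour 5. With median-ratio scaling its low end was -0.26 in tumour 1, with -0.22 in tumour 8.

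**Figure D3:**
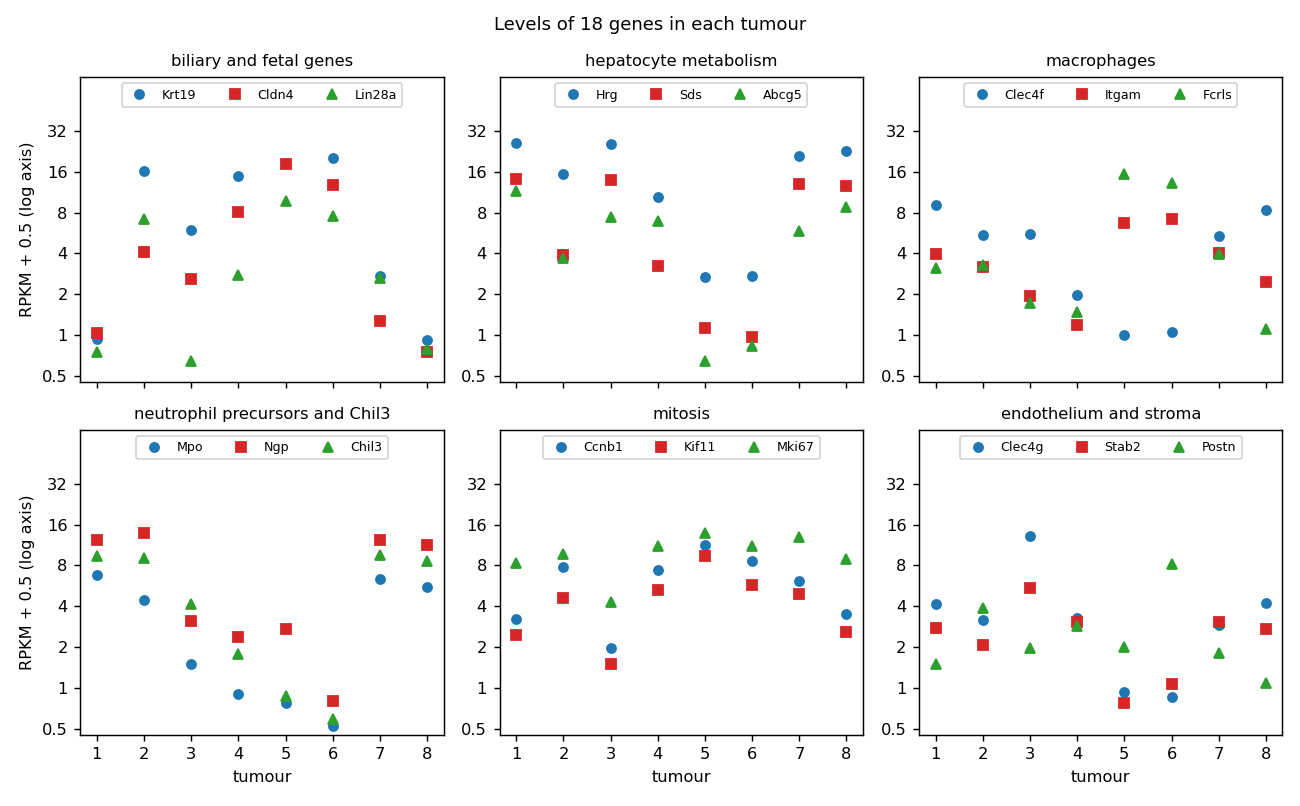
Levels of 18 genes in the 8 tumours (x axis), as RPKM + 0.5 on a log axis (y axis), each symbol 1 library. Krt19, Cldn4 and Lin28a are highest and Hrg, Sds and Abcg5 lowest in tumours 5 and 6. In those tumours Clec4f falls where Itgam and Fcrls rise, and Mpo, Ngp and Chil3 are high in tumours 1, 2, 7 and 8.

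Myc varied moderately and was highest in tumour 4. It stood at 4.45, 4.17, 3.31, 8.34, 6.68, 5.81, 4.01 and 3.60 RPKM (SD 0.42). No gene passed the adjusted threshold with Myc, with 1605 genes at an unadjusted p under 0.05 (13.9%), and none by Spearman rho or limma. Several lists had a median r with Myc above the 0.28 of all genes: 0.79 over 14 glycolysis genes (11 above 0), 0.73 over 13 hypoxia genes (13 above 0), 0.71 over 26 replication genes, and 0.69 over 24 ribosome biogenesis genes, 22 G2/M genes and 14 genes of the integrated stress response. Ribosomal proteins, also highest in tumour 4, had a median r of 0.67 (24 of 24 above 0). Tumour 4 is the tumour with the highest ceiling of the table, and the part of the ceiling in these medians was not tested. The lowest medians were those of the pericentral genes, -0.77, and of the P450 and bile acid genes, -0.71. Myc and Cyp1a2 had r = -0.78 (rho = -0.62, exact permutation p = 0.0258, 0.612 after adjustment over 66 pairs of reference genes; r = -0.61 without the 2 tumours farthest from the median of Myc). None of the 66 pairs passed the adjustment.

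The targets of YAP and TEAD ranged widely about as often as all genes. Of 20 kept, 2 ranged 4-fold (10%, against 9.11% of all genes), and 1 after median-ratio scaling or without tumour 8. Cyr61, a secreted matrix protein and textbook YAP target, stood at 14.6, 15.1, 17, 17.5, 17.5, 16.1, 12.4 and 13 RPKM (SD 0.18). Ctgf and Ankrd1, named after their values were seen, had SDs of 0.21 and 0.26, and Cyr61 and Ankrd1 reach into the range where the compression acts. The 2 wide members were Nt5e, an ectoenzyme that makes adenosine, from 0.494 RPKM in tumour 8 to 6.79 RPKM in tumour 6, and Gadd45b, a stress response gene, from 4.27 RPKM in tumour 8 to 21.7 RPKM in tumour 5. F3, the tissue factor, and Axl, a receptor kinase, followed with SDs of 0.64 and 0.60. No gene was called with Cyr61, and 1629 had an unadjusted p under 0.05.

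Genes of mitosis moved as a block. Of 22 G2/M genes 15 ranged 4-fold (68.2%), the median r between members was 0.96, and the list mean ran from -1.23 in tumour 3 to 0.87 in tumour 5. Ccnb1, the cyclin that brings cells into mitosis, stood at 2.69, 7.23, 1.45, 6.90, 10.8, 8.09, 5.66 and 3.0 RPKM. Kif11, the spindle motor, stood at 1.94, 4.13, 0.985, 4.73, 8.86, 5.18, 4.46 and 2.08 RPKM, and Ccnb2 and Bub1b had their lowest levels in tumour 3 and their highest in tumour 5. The wide ranges rested on those 2 tumours: without tumour 3 none of the 22 ranged 4-fold, without tumour 5 only 2, and without tumours 5 and 6 only 1. Mki67, the common proliferation marker, was lowest in tumour 3, at 3.78 RPKM, and at 7.78 to 13.4 RPKM in the others. Of 26 genes of DNA replication only 1 ranged 4-fold, none without tumour 3 or without tumour 4, and the widest by SD, Mcm2, Uhrf1, Mcm3 and Mcm5, were lowest in tumour 3. No gene passed with Mki67 by the exact test, 1097 had an unadjusted p under 0.05 and limma called 54.

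The fetal liver genes Afp and Igf2 could not be read for spread because of the compression. Afp stood at 18.3 to 36.0 RPKM, highest in tumour 4, and no gene was called with it, 415 having an unadjusted p under 0.05. Of 16 oncofetal genes 6 ranged 4-fold (37.5%), and 3 without tumour 3 or without tumour 5. Unlike Lin28a, the list mean was highest in tumour 4, at 0.45, with 0.0034 and 0.20 in tumours 5 and 6. Tff3, a trefoil factor of secretory epithelium, stood at 6.83, 11.2, 3.53, 17.5, 11.9, 13, 8.19 and 2.70 RPKM. Igf2bp1, an RNA-binding protein that stabilizes Igf2 and Myc messages, stood at 1.30 RPKM in tumour 3 and at 4.99 to 7.73 RPKM in the others. Among cholangiocyte and progenitor genes 7 of 17 ranged 4-fold (41.2%), with a summed level from 138 RPKM in tumour 8 to 241 RPKM in tumour 4. Their list mean was also highest in tumour 4, at 0.44, with 0.31 and 0.21 in tumours 5 and 6. Cldn7, a claudin, was at 0.916 RPKM in tumour 8 and 2.84 RPKM in tumour 1, and at 5.97 to 10.8 RPKM elsewhere. Krt23 and Cdh6, a keratin and a cadherin, were the next widest. Sox9, counted with periportal and biliary cells, ran against them, at 1.94 and 0.904 RPKM in tumours 5 and 6 and 4.31 to 5.88 RPKM in the other 6.

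Macrophage markers split into opposite patterns. Clec4f, the lectin that marks Kupffer cells, stood at 8.55, 5.02, 5.10, 1.47, 0.509, 0.550, 4.89 and 7.85 RPKM. Cd5l and Vsig4, also of Kupffer cells, were lowest in tumours 5 and 6 as well, at 1.03 and 1.11 RPKM for Cd5l. Itgam, an integrin of monocytes and neutrophils, stood at 3.44, 2.70, 1.43, 0.683, 6.17, 6.65, 3.54 and 1.96 RPKM. Emr1, a surface receptor of macrophages in general, stood at 6.52, 6.32, 3.40, 1.56, 9.13, 10.4, 5.46 and 3.09 RPKM. Tumours 5 and 6 thus had the highest levels of Emr1 and Itgam and the lowest of these Kupffer cell markers. Tumour 4 was low in Emr1, Itgam and Clec4f. The mean of the whole list, Kupffer cell markers included, was instead highest in tumour 1, at 0.32, with 0.06 and 0.26 in tumours 5 and 6. After median-ratio scaling these means were 0.39, 0.02 and 0.07. Of 18 macrophage genes 9 ranged 4-fold (50%), 3 without tumour 4, and the summed level of the list ran from 112 RPKM in tumour 4 to 214 RPKM in tumour 6. Timd4 and Marco, markers of resident cells, had a mean under 1 RPKM.

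Module 3, of 58 genes, gave the second pattern more fully. Its mean lay at 1.49 and 1.0 in tumours 6 and 5 and at -1.11 and -0.80 in tumours 4 and 3. Nearest to it were Anxa1, an anti-inflammatory annexin, Ccl8 and Ccl12, chemokines for monocytes, Gpr34, a lysophospholipid receptor of myeloid cells, and Slamf9. Anxa1 stood at 1.71, 3.74, 1.21, 0.905, 7.34, 7.54, 2.20 and 1.36 RPKM, and Ccl8 ran from 0.190 RPKM in tumour 4 to 8.47 RPKM in tumour 6. Fcrls, an Fc receptor-like gene of macrophages named after its values were seen, stood at 2.63, 2.82, 1.22, 0.992, 14.8, 12.9, 3.44 and 0.607 RPKM. The module also took in 3 mast cell proteases, Cpa3, Cma1 and Tpsb2, named likewise after the fact, whose highest tumour was tumour 2 with 7.69, 7.30 and 7.30 RPKM and whose next was tumour 6. Mast cell genes were at most 0.0963 RPKM in tumours 3 and 4.

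The macrophage gene among the reference genes was called with a group that held many leukocyte genes. Emr1 had 289 called genes, 286 with positive r (2.48% of genes tested) and 3 with negative r (0.026%). Lpcat2, a lysophospholipid acyltransferase of myeloid cells (r = 0.995, adjusted p = 0.0234 by the exact permutation test), Cd84 and Cd52, leukocyte surface proteins, led the positive side, and 8 of 17 macrophage genes were called. Fga, a fibrinogen chain (r = -0.945, adjusted p = 0.0309), Vtn, vitronectin, and Cys1 were the 3 on the negative side, and Fga and Vtn are plasma proteins of hepatocytes that lie in the compressed range. Median-ratio scaling left 231 calls for Emr1 and quantile scaling 185. With any tumour left out Emr1 had no call, but the exact test then has fewer pairings and a larger smallest p. The loss therefore cannot be laid to the tumour left out.

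Neutrophil genes divided the tumours in another way. Of 13 kept, 11 ranged 4-fold (84.6%), the median r between members was 0.90, and the list mean was 0.94, 0.86, 0.86 and 0.86 in tumours 1, 2, 7 and 8, and -0.39, -0.94, -1.02 and -1.17 in tumours 3, 4, 5 and 6. The summed level of the list ran from 25.2 RPKM in tumour 5 to 106 RPKM in tumour 1. Mpo, the myeloperoxidase of immature granulocytes, stood at 6.25, 3.95, 1.0, 0.401, 0.275, 0.0207, 5.83 and 5.07 RPKM. Ngp, a granule protein, stood at 11.7, 13.3, 2.61, 1.86, 2.21, 0.303, 11.8 and 10.8 RPKM. Elane, the neutrophil elastase, and Camp, the cathelicidin, had the same 4 tumours on top. Mpo and Elane are made in precursors rather than in mature neutrophils. In each of these genes those 4 tumours were the highest, and Chil3, also made by neutrophil precursors, had the same split with 8.14 to 9.05 RPKM against at most 3.65 RPKM. Without tumours 5 and 6 still 7 of 13 ranged 4-fold.

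Lymphocyte genes were scarce. Ptprc, the pan-leukocyte antigen CD45, was the only 1 of 23 found in the table with a mean of at least 1 RPKM, and ran from 1.2 RPKM in tumour 4 to 8.25 RPKM in tumour 6. Cd3e, of T cells, was at 0.07 to 0.35 RPKM, and no gene was called with it, 133 having an unadjusted p under 0.05. The 4 erythroid genes kept had no 4-fold range (against 9.11% of all genes, so too few to read), and Hbb-b1, a beta globin, stood at 1.88 RPKM in tumour 5 and at most 6.38 RPKM in tumour 3.

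The means of the endothelial and stromal lists had their ends in tumours 3, 5 and 6, with 0.63 in tumour 3 and -0.56 in tumour 5 for the endothelial list. Clec4g, a lectin of sinusoidal endothelium, stood at 3.68, 2.65, 12.6, 2.79, 0.436, 0.356, 2.40 and 3.70 RPKM, and Stab2, a scavenger receptor of the same cells, Oit3 and Vwf were also highest in tumour 3. Of 18 endothelial genes 6 ranged 4-fold (33.3%), 2 without tumour 3 and 1 without tumours 5 and 6, and the summed level ran from 46.5 RPKM in tumour 8 to 98.5 RPKM in tumour 3. Pecam1, the general endothelial marker, was instead highest in tumour 6, from 2.81 to 7.23 RPKM. No gene was called with Pecam1, with 1792 at an unadjusted p under 0.05, and 51 were called without tumour 5. Among stellate cell and fibroblast genes 6 of 20 ranged 4-fold (30%), 3 without tumour 5 and none without tumours 5 and 6, and the summed level ran from 42.9 RPKM in tumour 5 to 110 RPKM in tumour 6. Postn, periostin of activated fibroblasts, stood at 7.64 RPKM in tumour 6 and at most 3.39 RPKM elsewhere, and Col1a1, a collagen chain, at 12.1 RPKM against 3.69 to 6.10 RPKM. Lum and Reln were instead highest in tumour 3, at 13.2 and 4.30 RPKM, and lowest in tumour 5. Tumours 5 and 6, alike on the main axis, were thus opposite ends of the stromal list, at -0.69 and 0.61. No gene was called with Col1a1, 317 having an unadjusted p under 0.05.

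**Figure D4:**
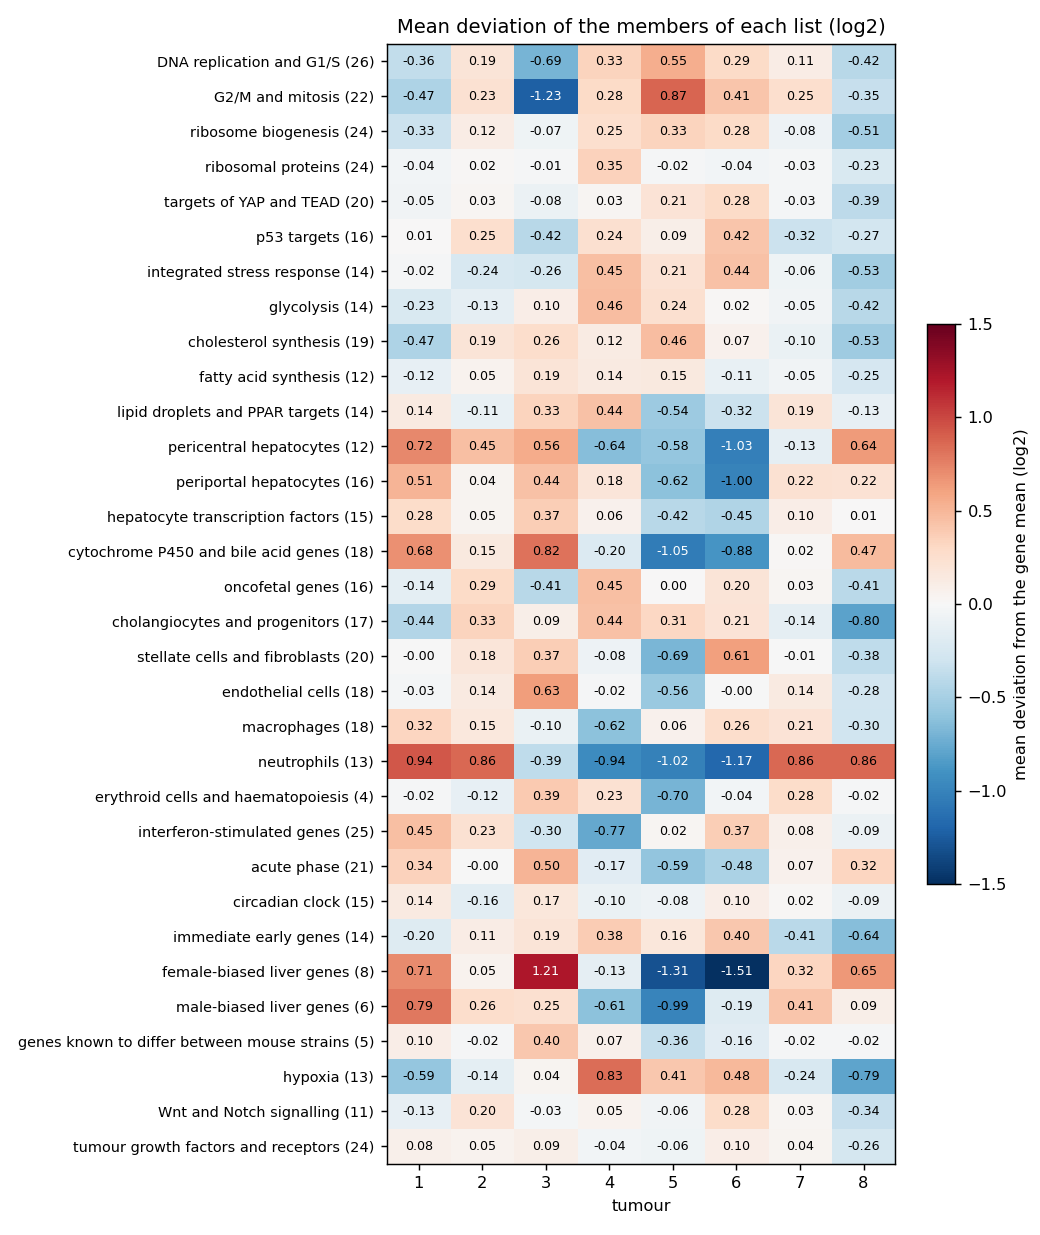
Mean deviation of the kept members of each gene list from their gene means (log2, colour and printed value) in tumours 1 to 8 (columns), with the number of members in parentheses. Neutrophil genes are positive in tumours 1, 2, 7 and 8 and negative in the other 4, G2/M genes run from -1.23 in tumour 3 to 0.87 in tumour 5, and ribosomal proteins stay between -0.23 and 0.35.

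Stress and oxygen lists were led by tumour 4. Of 13 hypoxia genes 5 ranged 4-fold (38.5%), and the list mean ran from -0.79 in tumour 8 to 0.83 in tumour 4. Egln3, a prolyl hydroxylase that HIF induces, stood at 0.953, 3.03, 3.10, 9.61, 4.60, 6.45, 1.98 and 1.56 RPKM. Car9, a carbonic anhydrase, and Adm, adrenomedullin, also peaked in tumour 4, at 11.5 and 8.16 RPKM, whereas Slc2a1, the glucose transporter GLUT1, peaked in tumour 5, at 17.1 RPKM, with 11.8 RPKM in tumour 4 and 2.57 RPKM in tumour 8. Glycolysis genes ranged 4-fold in 3 of 14 (21.4%), among them Slc2a1 and Hk2, the hexokinase of growing cells. Hk2 was at 0.843 RPKM in tumour 3 and 8.12 RPKM in tumour 5. In the integrated stress response 5 of 14 ranged 4-fold (35.7%), among them Asns, asparagine synthetase, from 2.15 RPKM in tumour 3 to 12 RPKM in tumour 4, Atf3 and Trib3. Fgf21, a stress hormone of the liver in the same list, was instead highest in tumour 3, at 7.36 RPKM.

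Interferon-stimulated genes were lowest in tumour 4. Of 25 kept, 6 ranged 4-fold (24.0%), 10 after median-ratio scaling and 1 without tumour 4, and the list mean ran from -0.77 in tumour 4 to 0.45 in tumour 1. Mx1, an antiviral GTPase, stood at 4.03, 2.41, 0.533, 0.323, 2.73, 3.09, 2.32 and 1.78 RPKM, and Oasl2, Gbp2 and Gbp3 were also lowest in tumour 4. Psmb8, a subunit of the immunoproteasome, was at 1.93 RPKM in tumour 4 and at 5.38 to 9.14 RPKM in the other 7. Leukocyte genes were low in the same tumour, Ptprc at 1.2 RPKM, and their part in the interferon list was not tested.

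Acute phase genes and clock genes were described in the same way. Among 21 acute phase genes 8 ranged 4-fold (38.1%), 5 without tumour 3, led by Orm3, Saa1, Saa2 and Orm1, and Saa1 stood at 5.71 RPKM in tumour 3 and 0.471 RPKM in tumour 5. In the circadian clock 3 of 15 did (20%), none of them without tumours 5 and 6. Hlf, a transcription factor of the clock's output, was lowest in tumours 5 and 6, and Bhlhe41, a repressor of the clock, was instead highest in them, at 4.42 and 2.21 RPKM against at most 0.650 RPKM. Dbp, whose level swings strongly over the day, had an SD of 0.55. Of 14 immediate early genes 1, Atf3, ranged 4-fold, and of 14 lipid droplet and PPAR genes 3, led by Plin5 and Plin4. Of 12 genes of fatty acid synthesis 2 did, Thrsp, highest in tumour 3 at 9.51 RPKM, and Elovl6, and the count was 0 without tumour 3 and 1 without tumour 5. Of 11 genes of Wnt and Notch signalling 1 did, Jag2, a Notch ligand, from 0.266 to 3.24 RPKM, and none without tumour 6. Of 24 growth factors and receptors 3 did, Fst, Hgf and Inhba, 1 without tumour 3 or without tumour 5, and none without tumours 5 and 6. Of 5 genes known to differ between mouse strains 1 did, Hc, the complement C5, which follows the hepatocyte axis, and none without tumour 5. Nnt, whose deletion marks some C57BL/6 colonies, was at 2.21 to 5.0 RPKM in all 8.

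No member ranged 4-fold among 16 p53 targets, 24 ribosomal proteins, 24 ribosome biogenesis genes or 19 genes of cholesterol synthesis. The share was 9.11% of all genes and 0.847% of genes above 15.7 RPKM, so few would be counted in lists of this size. A count of 0 is therefore no result about these members. Ribosomal proteins had a median SD of 0.17 and were highest in tumour 4, at 0.35, where the ceiling of the table is also highest. Cholesterol synthesis ran from -0.53 in tumour 8 to 0.46 in tumour 5, with Lss, lanosterol synthase, from 3.90 to 11.6 RPKM. With median-ratio scaling its low end was -0.40 in tumour 1, with -0.23 in tumour 8.

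Module 4, of 48 genes, had an order of tumours unlike that of the main axis and came mostly from 1 chromosomal region, a description chosen after the values were seen. Of its genes 40 were small RNA genes, and the imprinted region from Dlk1 to Dio3 on chromosome 12 held 46 genes kept, 40 of them small RNA genes. In this region the maternal chromosome expresses the long noncoding RNAs Meg3, Rian and Mirg with a long series of microRNAs and small nucleolar RNAs, and the paternal one expresses Dlk1, Rtl1 and Dio3. Of the 46 genes 44 ranged 4-fold (95.7%), also after median-ratio scaling. The median range was 3.70 on the log2 scale and the median r between genes 0.92. Reads over the 40 small RNA genes are of longer precursor transcripts, which several of them can share. The 46 are thus not separate genes to set beside the 9.11% of all genes. Some, such as Mir540 and Mir665, were at 0 in tumour 3. Meg3 stood at 1.56, 8.71, 0.537, 8.49, 0.895, 4.52, 2.30 and 6.10 RPKM. Rian stood at 2.27, 16.1, 1.19, 13.9, 2.26, 9.81, 5.18 and 7.25 RPKM, and Mirg at 0.831, 11.8, 0.327, 7.56, 0.728, 5.69, 2.29 and 2.84 RPKM. Tumour 2 was the highest for 41 of the 46 genes, and tumour 3 the lowest for 29, tumour 1 for 9 and tumour 5 for 6.

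No flanking gene ranged 4-fold, although the side of Dlk1 was not even. The 5 genes kept on each side had ranges of 0.39 to 1.91, with a median of 0.65. The widest, Slc25a47 (1.91) and Evl (1.77), both lay on the side of Dlk1. Rtl1, whose coding strand is paternal, ran with the maternal genes, at 0.114 to 4.92 RPKM, but the library does not mark strand and maternal antisense reads over Rtl1 cannot be told apart from its own. Dlk1, the paternal ligand of the region, had a mean under 1 RPKM, with 1.84 and 2.29 RPKM in tumours 2 and 6 and at most 0.43 RPKM in the others. Dio3, which inactivates thyroid hormone, and its antisense Dio3os were the 2 genes kept that did not range 4-fold. Tumours 5 and 6, alike in modules 1 to 3, were apart here, at -1.16 and 0.71 of the region's mean.

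**Figure D5:**
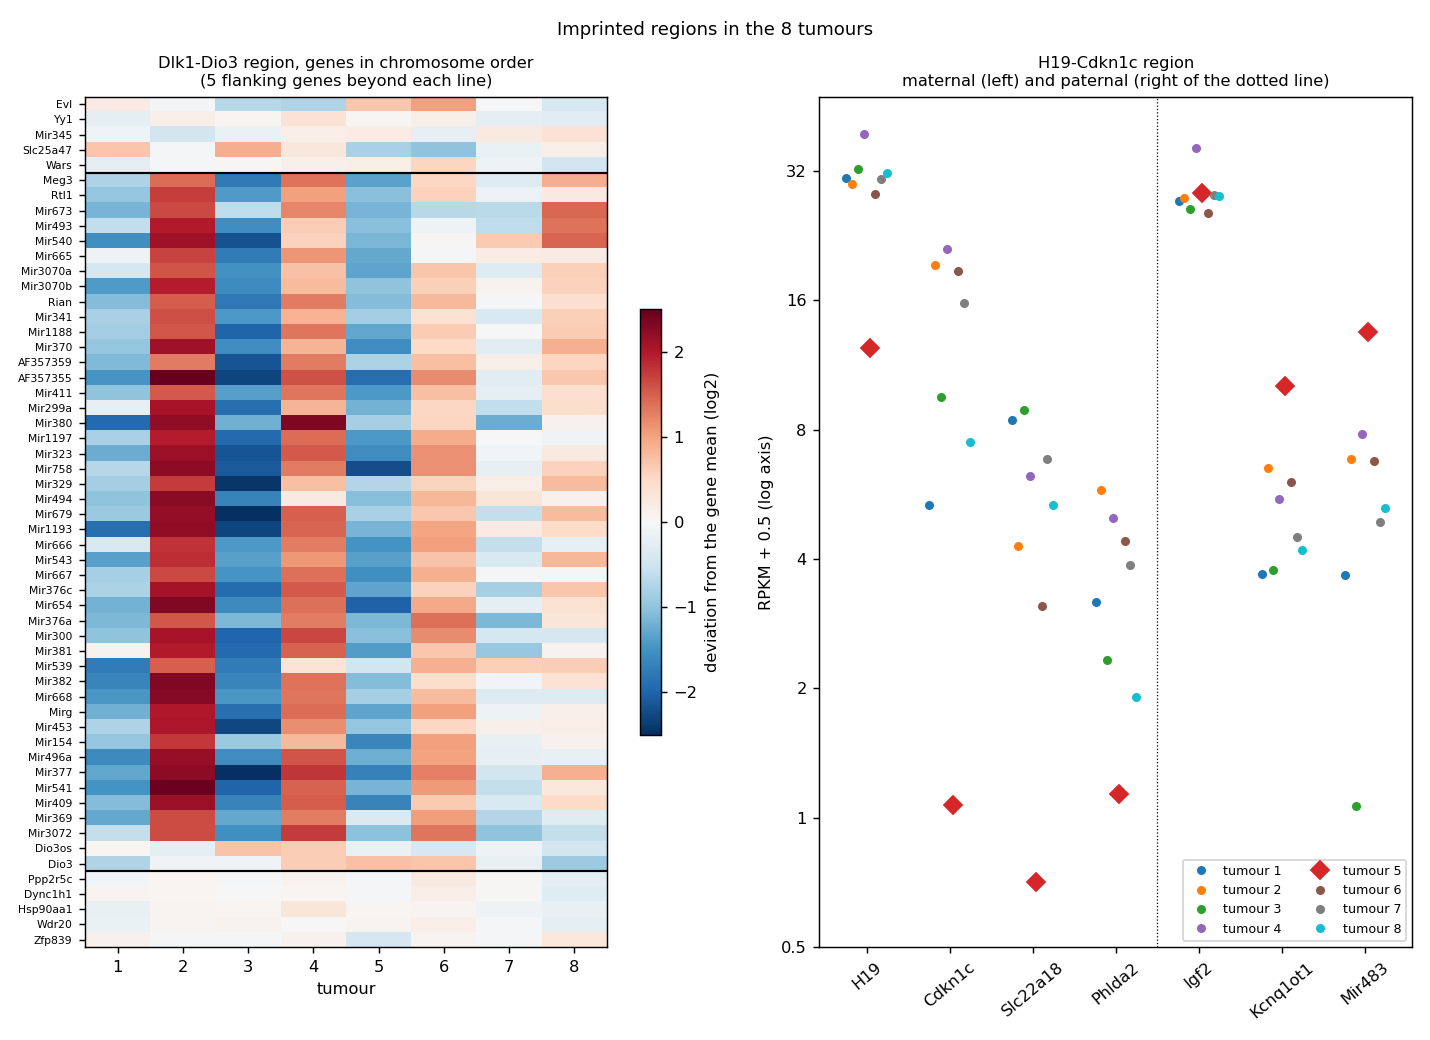
Left, deviation from the gene mean (log2, colour) of the genes of the Dlk1 to Dio3 region in chromosome order, in tumours 1 to 8. Beyond each black line are 5 flanking genes. Tumour 2 is the highest for 41 of 46 genes, and no flanking gene ranges 4-fold. Right, RPKM + 0.5 (log axis) of genes of the H19 to Cdkn1c region, 1 point for each tumour with tumour 5 as a diamond: it is lowest for H19, Cdkn1c, Slc22a18 and Phlda2 and highest for Kcnq1ot1 and Mir483.

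The libraries hold fragments of long RNA, so reads over a microRNA gene are of its precursor transcript and do not measure the mature microRNA. Mature sequences are printed to show what the region encodes. Of 38 microRNA genes kept in the region 37 had a hairpin in RefSeq (GRCm38.p6), which gave 73 mature sequences with 68 different seeds, bases 2 to 8, the part that pairs with targets. The seeds shared by 2 genes, 5 in all, are shown, with the seed in capitals:
miR-370-5p: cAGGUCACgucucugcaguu
miR-1193-3p: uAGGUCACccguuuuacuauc
miR-1197-5p: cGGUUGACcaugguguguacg
miR-758-5p: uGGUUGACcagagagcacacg
miR-453: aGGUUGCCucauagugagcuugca
miR-496a-5p: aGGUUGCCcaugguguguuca
miR-3070-5p (in Mir3070a and Mir3070b): aGCCCCUGaccuugaaccuggga
miR-3070-3p: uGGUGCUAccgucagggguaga
miR-3070-2-3p: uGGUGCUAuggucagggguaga

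The 8 genes with a shared seed all followed the region. Mir370 stood at 5.85 RPKM in tumour 2 and at 0 in tumours 3 and 5, and Mir1193 at 10.8 RPKM in tumour 2 and 0 in tumour 3. Mir758 and Mir453 reached 20.1 and 19.2 RPKM in tumour 2 and had their lowest levels, 0.443 and 0.506 RPKM, in tumours 5 and 3. Mir1197, Mir496a, Mir3070a and Mir3070b were likewise highest in tumour 2. Genes with a common seed did not share a level: the highest level of Mir3070b was 16 RPKM and that of Mir3070a 7.68 RPKM.

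Several genes of a second imprinted region, on chromosome 7, had an end in tumour 5. This too was noticed after the values were seen. Cdkn1c, the cell cycle inhibitor p57 expressed from the maternal chromosome, stood at 4.84, 18.8, 9.01, 20.6, 0.573, 18.2, 15.2 and 6.99 RPKM. Slc22a18, a maternally expressed transporter, stood at 7.94, 3.79, 8.40, 5.73, 0.210, 2.61, 6.33 and 4.84 RPKM, and Phlda2, also maternal, at 0.633 RPKM in tumour 5 and 1.41 to 5.29 RPKM elsewhere. H19, the maternal noncoding RNA, was at 11.9 RPKM in tumour 5 and at 27.8 to 38.5 RPKM in the other 7, which is within the compressed range. Genes of the paternal chromosome had tumour 5 at the other end. Kcnq1ot1, the paternal antisense RNA, stood at 9.64 RPKM in tumour 5 and 3.2 to 6.03 RPKM elsewhere, and Mir483, within Igf2, at 13 RPKM against 0.57 to 7.32 RPKM. Igf2 itself, at 25 to 35.7 RPKM, was at the ceiling of the table and had 28.0 RPKM in tumour 5. Of the 12 genes kept between H19 and Nap1l4, tumour 5 was the lowest for 5 and the highest for 3. Some of these genes also followed modules: Slc22a18 was in module 1 (r = 0.82 to its mean), Mir483 in module 2 (r = 0.72) and Cdkn1c in module 4 (r = 0.67). Whether the levels in tumour 5 are a matter of the region or of those modules was not tested.

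Single tumours stood apart in 745 genes (6.46% of those kept, where chance alone gives about 1 in 20). In these the gap from 1 end to the next tumour was above 0.53 of the range, Dixon's critical value for 8 samples after rounding. The share is near that of chance and rests largely on tumour 8 at the low end, a count that fell with scaling. It is therefore no result. The genes named below were picked for such a gap, so they are examples and no set particular to a tumour. Tumour 8 was the low end in 371 of the genes and the high end in 4, and in 47 and 31 after median-ratio scaling. Tumour 4 was the high end in 88 and the low end in 42, and in 126 and 98 after scaling. Tumour 3 was the high end in 64 and the low end in 27, and in 56 and 60 after scaling. Tumour 5 went from 13 high and 58 low to 37 and 58, and tumour 6 from 31 high and 19 low to 16 and 55, so its larger side turned. Tumour 7 was the high end only in Cd209c and the low end only in Slc25a37. Tumour 1 was the high end in 4 genes, led by Ulk1, and the low end in 4, led by Ppp1r14a and Pdzk1, and tumour 2 in 15 and 3, led by Zfp947 and Nostrin on the high side and Vldlr and Atf5 on the low side. Without a filter on level 2443 genes had such a gap.

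The largest gaps named genes of different kinds in each tumour. In tumour 3 Atp6v0d2, a proton pump subunit of lysosomes and osteoclasts, was at 8.42 RPKM and at most 1.34 RPKM elsewhere, and Fam47e and Adam23 also stood out, while Igf2bp1 and the mitotic genes Gtse1 and Psrc1 were low. In tumour 4 Nipal1, Uqcrq, a subunit of respiratory complex III, and Gfpt1, which feeds glucose into amino sugars, were high, and the interferon-inducible genes Psmb8 and Uba7 and the prostaglandin synthase Ptgs1 were low. In tumour 5 Ankrd33b, Syngr1 and Tlr5, the flagellin receptor, were high, and Cdkn1c, Slc22a18 and Abcc2, the canalicular bilirubin conjugate pump, low, Abcc2 at 1.59 RPKM against 7.21 to 15 RPKM. Tumour 6 differed from tumour 5 here by the folate receptor Folr1, at 6.38 RPKM and at most 0.951 RPKM elsewhere, Fst, the activin-binding follistatin, at 6.73 RPKM and at most 1.41 RPKM, and Nrtn, and by low Urad and Upb1, enzymes of purine and pyrimidine breakdown. In tumour 8 Tinag, at 0.596 RPKM against 3.45 to 6.64 RPKM, Hspb1, a small heat shock protein, and Ddc were low, and Yod1, Farp1 and Vamp2 were high.

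Module 5, the smallest with 14 genes, was highest in tumour 6, at 1.39, and lowest in tumour 8, at -1.32. Among the nearest to its mean were Cxcl17, a mucosal chemokine, Akr1b8, an aldo-keto reductase, Cox6b2 and Nup62cl. Cxcl17 stood at 1.70, 1.60, 0.709, 5.27, 1.32, 7.85, 1.36 and 0.355 RPKM, so its high tumours were 4 and 6 rather than 5 and 6.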

How the data were processed

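RNA was measured by sequencing of total liver RNA; per the labels it was purified on RNeasy MinElute columns and made into libraries with the TruSeq RNA v2 kit without its poly-T bead step, a kit that does not mark strand, so overlapping and antisense genes cannot be told apart. Per the submitters' notes, DESeq2, featureCounts 1.4.5-p1, TopHat2 2.0.8 and SAMtools were among the tools, with mm9 as the build. The authors deposited RPKM values per gene symbol, and the step that compressed the abundant genes is not given in the sources used here. In reads per kb the sixth-highest gene stood at 1573 to 1631 in every library. The ceiling in RPKM is thus highest in tumour 4, the library with the fewest reads, 41160000. Of 21671 rows 27 whose symbol had become a date were left out, and 13 columns of other groups were not used. The members and gene lists were chosen with earlier results of these data known.

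RPKM values were taken as log2(RPKM + 0.5) for genes with a mean of at least 1 RPKM over the 8 tumours. The value of 1 read was found from the RPKM steps, and 100% of the values of genes kept came out whole within 0.02 of a read; these reads gave the library totals and the counting SD. They cover counting error only. Correlations with 12 reference genes were tested with exact permutation of Pearson r (two-sided, 40320 pairings) and Benjamini-Hochberg adjustment, in numpy 2.4.6, scipy 1.17.1 and pandas 2.3.3, and with limma 3.58.1 in R 4.3.3 as an alternative. The tests were tried on simulated data. Spread, modules (average linkage on 1 - r, distance 0.5, the 500 genes of largest SD, at least 10 genes) and principal components carry no test. Lists were described by how many members had a range of at least 2 (log2) beside the share of all genes. Genes are named where they had the 10 largest SDs, were a reference gene or among its 3 highest or 3 lowest called r, were among the 4 largest SDs of a list, the 3 largest gaps of a tumour in a direction, the 5 nearest to a module mean or the 5 smallest SDs above 10 RPKM, and where the text says that they were chosen after their values were seen. Some genes that this rule names, 1 of the reference genes among them, are not reported here. Alternatives were other pseudocounts, scalings, filters and gene numbers, the compressed genes left out and each tumour left out. Chromosomes, neighbours and sequences are from RefSeq on GRCm38.p6, matched by symbol, since the coordinates of mm9 were not used.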

Additional observations from a re-analysis of the deposited data

Results flagged for a closer look

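Of 278 values looked at over the 8 tumours, 57 had 1 tumour whose gap to the next, as a share of the range, was above Dixon's critical value for 8 samples (0.53 after rounding). Chance alone gives about 1 in 20, and many of the genes below were named in the first place because a tumour stood apart in them, so the count is no result. Each gap is given as a share of the range on log2(RPKM + 0.5), as deposited. Over all genes kept, those with tumour 8 at the low end went from 371 to 47 with median-ratio scaling.

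Tumour 3 was the low end for Igf2bp1 (0.734), Mki67 (0.56), Gtse1 (0.591) and Psrc1 (0.578), and the high end for Atp6v0d2 (0.696), Fam47e (0.579), Adam23 (0.536) and Thrsp (0.553). In tumour 4 the high genes were Igf2 (0.682), which lies at the ceiling of the table, itself highest in tumour 4, Cys1 (0.61), Gfpt1 (0.599), Nipal1 (0.6) and Uqcrq (0.62), and the low ones Psmb8 (0.641), Uba7 (0.685) and Ptgs1 (0.66). Tumour 5 was low for the maternally expressed genes H19 (0.719), Cdkn1c (0.539) and Slc22a18 (0.584) and for Abcc2 (0.652), and high for Ankrd33b (0.573), Syngr1 (0.538) and Tlr5 (0.565).

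Tumour 6 was high for the growth factor antagonist Fst (0.833), Folr1 (0.651), Col1a1 (0.589) and Nrtn (0.545), and low for the enzymes Urad (0.805) and Upb1 (0.589) and for Xist (0.53). In tumour 8 the low genes were Tinag (0.684), Tmsb4x (0.623), Nap1l4 (0.596), Hspb1 (0.586), Ankrd1 (0.563) and Ddc (0.541), and the high ones Farp1 (0.636), Vamp2 (0.58) and Yod1 (0.574). Tmsb4x and Nap1l4 do not keep this gap with median-ratio scaling. Tumour 1 was high for Ulk1 (0.535) and low for Ppp1r14a (0.597) and Pdzk1 (0.54). Tumour 2 was high for Nostrin (0.596) and Zfp947 (0.557) and low for Atf5 (0.638) and Vldlr (0.56), and tumour 7 was high for Cd209c (0.592) and low for Slc25a37 (0.736).

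Among list means the gap was 0.529 for erythroid genes, low in tumour 5, and 0.564 for ribosomal proteins, high in tumour 4. It was 0.551 for growth factors and receptors, low in tumour 8, where the list mean was -0.26 as deposited and 0.02 after median-ratio scaling. The list of sex chromosome genes (0.53, low in tumour 6) had 1 member kept, Xist, so its gap is that of Xist given above. Chromosome medians were high in tumour 5 for chromosome 1 (0.612), in tumour 2 for chromosome 8 (0.615) and in tumour 8 for chromosome 12 (0.539). Of the library measures, the percentage of reads in the genes kept was low in tumour 8 (0.541) and the sixth-highest RPKM was high in tumour 4 (0.563).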

How the results depend on the processing

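The share of variance on the first component (45.3% to 56.9% with each tumour left out, 41.4% without tumours 5 and 6) changed little under any setting tried. The number of genes with a range of at least 2 moved from 1051 to 1603 with a pseudocount of 0.1, 605 with a pseudocount of 1 and 407 without tumours 5 and 6, and was 813 to 1043 with each tumour left out. Genes called with Krt19 went from 1866 to 0 with median-ratio scaling, quantile normalization, adjustment over all reference genes or no tumours 5 and 6, to 1061 with no filter and 1180 with Spearman rho, and 0 to 1748 with each tumour left out. Those called with Emr1 went from 289 to 185 with quantile normalization, 14 with Spearman rho and 0 without tumours 5 and 6, with adjustment over all reference genes and without any 1 tumour (0 to 0). From 0 calls, Hnf4a had 341 with median-ratio scaling, 979 with quantile normalization and 42 with limma, Mki67 had 54 and Cyp1a2 4 with limma, and Pecam1 had 0 to 51 with each tumour left out. The causes of these moves were not tested, and with tumours left out the exact test also reaches only larger p-values. The 5 modules became 3 with 250 genes, 8 with 1000 genes, 14 with complete linkage and 3 with small RNA genes left out, and the largest went from 210 to 116, 361 and 79 genes in the first 3 of these settings. Genes in which 1 tumour stood apart went from 745 to 2443 with no filter.

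The tumours carry no numbers in the table, and whether some came from 1 mouse was not tested. With 8 libraries no correlation is known closely, and the abundant genes are compressed under a ceiling that differs between tumours, so their spread cannot be read. The second component moved with library reads, and their part in it was not tested. No paired analysis was possible because the tumours form 1 group and their columns carry no replicate numbers.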

Other observations

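Other imprinted genes differed between tumours without forming a region. Mest, a paternally expressed gene of mesoderm, stood at 1.36, 3.31, 1.78, 2.83, 8.30, 3.70, 2.83 and 1.5 RPKM, highest in tumour 5. Peg10, also paternal, was highest in tumours 5 and 6, at 4.55 and 4.23 RPKM, and lowest in tumour 4, at 1.28 RPKM. Zim1, a maternally expressed zinc finger gene, stood at 3.48, 7.70, 1.47, 5.76, 0.406, 7.41, 4.69 and 8.83 RPKM, so tumour 5 was low as for Cdkn1c. Like Cdkn1c, Zim1 was a member of module 4 (r = 0.80 to its mean). Peg3, its paternal neighbour, stayed between 20.9 and 32.8 RPKM in the compressed range. These genes were chosen after their values were seen.

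Medians of whole chromosomes are given as a description. They cannot be set beside the ranges of single imprinted genes, and changes of copy number were not tested. Of 11515 genes kept with a chromosome in RefSeq, the median deviation of each chromosome in each tumour, less the median of the tumour, gave 160 values. Of these 129 lay within 0.1 on the log2 scale and 7 lay beyond 0.2, from -0.23 for chromosome 19 in tumour 8 to 0.30 for chromosome 14 in tumour 8. The value of chromosome 14, over 404 genes, was 0.298 after median-ratio scaling, and -0.21 in tumour 7 as deposited.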
